A study of Mus musculus with 12 samples.

Results

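The 9 genes described here set the direction of glucose flux through hepatocytes and report on the fed or fasted state of the liver. They are Slc2a2, Pfkfb1 and Pklr on the side of glucose uptake and glycolysis, Pck1, Fbp1 and G6pc on the side of glucose production, and Ppargc1a, Pdk4 and Irs2 as regulators that respond to fasting or insulin. They were taken by symbol from the deposited table of 55487 genes, and all 9 were found. The table holds RNA-seq read counts of liver and brain from 6 mice, 3 of them Mettl5 knockouts (KO, mice A, C and F) and 3 controls (WT, mice B, D and E), which makes 4 groups of 3 libraries. METTL5 is the methyltransferase that places an m6A on 18S rRNA, and the comparison of KO with WT asks what its loss does to the transcripts of each tissue. The KO allele lacks exon 2 of Mettl5. It came from a line with a floxed exon 2, made in hybrid C57bl/6 and 129S6 embryonic stem cells and backcrossed to B6, which was then crossed to mice that carry CMV-cre, so the deletion is in the whole body and not in hepatocytes alone. WT is the label of the controls, but the study names heterozygous mice (Mettl5+/-) as the controls of its RNA-seq comparison in pairs, and elsewhere shows RNA-seq reads of a Mettl5+/+ mouse. Whether the WT libraries carry a KO allele cannot be told from the labels, so every difference of KO from WT given here may be one from heterozygous mice. The labels give no age, sex, litter, feeding state or hour of collection for any mouse, and the study used both sexes over a range of ages. No source says how long the mice had been without food, which bears on every gene described here.

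Liver switches between using and making glucose within hours of a meal. In the fed state insulin and glucose drive glycolysis: glucose enters through the transporter GLUT2 (Slc2a2), the bifunctional enzyme encoded by Pfkfb1 sets the level of fructose 2,6-bisphosphate, and liver pyruvate kinase (Pklr) completes the pathway and feeds carbon to fatty acid synthesis. In fasting, glucagon and falling insulin turn on phosphoenolpyruvate carboxykinase (Pck1) and glucose-6-phosphatase (G6pc), with fructose-1,6-bisphosphatase (Fbp1) between them. The coactivator PGC-1alpha (Ppargc1a) promotes gluconeogenic transcription, pyruvate dehydrogenase kinase 4 (Pdk4) keeps pyruvate out of oxidation, and Irs2, an adaptor of the insulin receptor, is itself transcribed when insulin is low through FOXO factors.

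The 6 liver libraries held 16145754 to 21623180 counts each, and the 6 brain libraries 14403309 to 18365114. Values are normalised read counts in CPM, with the library size scaled by TMM within the tissue, and values of single libraries are listed in the order of mice B, D and E for WT and A, C and F for KO. Mettl5, the targeted gene, was at 14.9, 8.13 and 8.35 CPM in WT liver and at 3.85, 3.64 and 4.07 in KO liver, and every KO library also lay below every WT library in brain. The labelled tissues carried their own markers: 15 hepatocyte genes summed to 78782 to 101765 CPM in WT liver, 92174 to 99508 in KO liver and 282 to 763 in brain, and 10 neuronal genes summed to 4581 to 5433 CPM in brain. Some features of the libraries moved with genotype in liver. Mitochondrial rRNA took 10.7% to 16.9% of counts in WT and 7.36% to 8.66% in KO, and 9 lymphocyte markers summed to 26.0 to 144 CPM in WT and 9.07 to 12.5 in KO. The sums of 10 Kupffer cell markers overlapped at 291 to 466 CPM in WT and 210 to 418 in KO, although all 10 had a log2 fold change below 0 (median -0.34). The 5 adipocyte markers summed to 0.0515 to 3.63 CPM in WT and 0 to 0.120 in KO. The part of these features in the results was not tested, other than by leaving out the mitochondrial genes, with which the log2 fold change of Pklr was again -0.82 and that of Irs2 again 1.41. In whole tissue, fewer cells of a type and less RNA per cell cannot be told apart.

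In liver, Pklr was lower and Irs2 higher in every KO library than in every WT library, while the gluconeogenic enzymes had smaller differences: Pck1 stood 1.20-fold and G6pc 1.03-fold higher on average with overlapping groups, and Fbp1 stood 1.19-fold lower. None of the 9 passed an adjusted p under 0.1 with edgeR's quasi-likelihood test over 14075 genes. No gene of the whole table did (0 genes, 0.0%), so the count of 0 of 9 is that of the background. At an unadjusted p under 0.05 there were 3 of 9 (Pklr and Pfkfb1 lower, Irs2 higher) where 7.33% of all genes tested passed. The KO and WT libraries did not overlap for 4 of 9 (Pklr, Pfkfb1, Fbp1 and Irs2), where 12.9% of all genes tested showed no overlap. That count depends on the scaling: with CPM of the plain library total it was 2 of 9 (Pklr and Irs2), where 15.0% of all genes showed no overlap. With TMM, Irs2 alone lay wholly above (6.5% of all genes) and the other 3 wholly below (6.44%). The median log2 fold change was -0.27 over the 9 and -0.002 over all genes tested. The call on Pklr depended on the test, as described with its values.

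**Figure D1:**
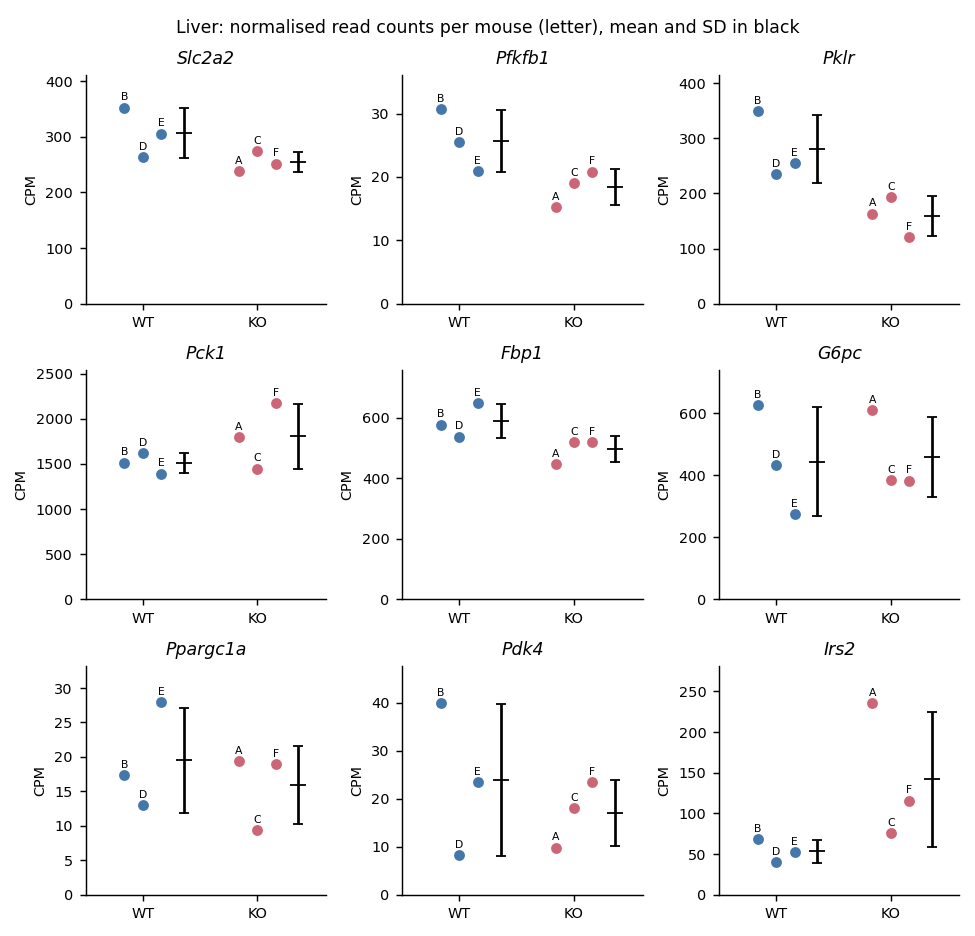
Normalised read counts (CPM, linear axes from 0) of the 9 genes in each liver library, with WT in blue, KO in red, the mouse's letter above each point and the group's mean and SD (n = 3) in black. In this TMM scaling the 3 KO points lie below the 3 WT points for Pklr (120 to 193 against 235 to 350 CPM), Pfkfb1 and Fbp1 and above them for Irs2 (75.4 to 235 against 39.8 to 68.0 CPM), and the groups overlap in the other 5 panels.

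Where the 9 genes are expressed was read from the contrast of liver with brain, averaged over genotypes. The main fit took the liver and brain libraries of a mouse as independent. Slc2a2, Pfkfb1, Pklr, Pck1, Fbp1 and G6pc belonged almost wholly to liver, whereas the 3 regulators were measured in both tissues. Levels between genes are compared as CPM per kilobase of exon, over the 6 libraries of a tissue. For these, TMM was fitted over all 12 libraries together, so they are not the CPM above divided by length: that scaling sets liver values higher and brain values lower than the one within a tissue. In liver, Pck1 led with 614 ± 112 CPM per kilobase (SD, n = 6), followed by Fbp1 with 403 ± 47.0 and G6pc with 237 ± 73.9. Pklr with 85.9 ± 31.1 and Slc2a2 with 61.9 ± 9.06 came next, and their ranges overlapped over the 6 libraries. This held in KO (47.8 to 76.3 for Pklr and 53.1 to 60.9 for Slc2a2) and not in WT, where Pklr at 90.6 to 137 lay above Slc2a2 at 56.9 to 77.8 CPM per kilobase. Irs2 was at 19.7 ± 14.7, Pdk4 at 7.41 ± 4.19, Pfkfb1 at 6.95 ± 1.67 and Ppargc1a at 3.40 ± 1.20 CPM per kilobase, of which Pdk4 and Pfkfb1 lay within each other's spread. The mean of Irs2 combines 10.6 ± 2.92 in WT, within the range of Pdk4 there (2.91 to 14.5), with 28.8 ± 16.9 in KO, above that of Pdk4 (3.58 to 8.57; SD, n = 3 each).

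In brain, Irs2 with 7.62 and Ppargc1a with 7.05 CPM per kilobase stood highest, Pdk4 was at 1.85, and the other 6 were at 0.138 or less. Pklr had 11 counts in all 6 brain libraries together (95% Poisson interval 5.49 to 19.7, for counting error only), Slc2a2 and G6pc had 12 each, Fbp1 had 27, Pfkfb1 had 44 and Pck1 had 58. Slc2a2, Pfkfb1, Pklr, Fbp1 and G6pc did not pass the count filter within brain and entered the fit of 12 libraries only through liver, so their difference between tissues was fixed by the filter and their values are a description. Of the 4 that passed in both tissues, Pck1, Pdk4 and Irs2 were higher in liver and Ppargc1a was higher in brain (edgeR adjusted p from 3.03e-13 in Pck1 to 0.00121 in Irs2). Of all 18944 genes tested, 84.9% passed this test, 37.9% being higher in liver and 47.0% in brain, so a pass was common. On the log2 scale the liver exceeded the brain by 11.74 (SE 0.29) in Pklr, 11.73 (SE 0.23) in Slc2a2, 12.11 (SE 0.34) in Pck1 and 11.54 (SE 0.29) in Fbp1. G6pc had at most 3 counts in any brain library, and its mean liver level was 3790-fold that of a floor of 3 counts per brain library. With its own brain counts the ratio was 6099.25 (95% interval 3491.67 to 11803.9, for counting error only), so the floor gives no lower bound. Of 15 hepatocyte markers, 10 lay at 11.75 to 13.67 in this contrast, and 5 (Tdo2, Asgr1, Trf, Fah and Ttr) lay below these members at 4.83 to 10.10. The difference was 6.25 (SE 0.38) in Pfkfb1, 1.98 (SE 0.33) in Pdk4, 1.21 (SE 0.28) in Irs2 and -1.05 (SE 0.20) in Ppargc1a.

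Several paralogs of the liver genes were higher in brain, and each of those named here passed the same test, although Slc2a3 did not pass the count filter within liver, so that its difference was fixed by the filter. Pkm, the pyruvate kinase of most other tissues, was at 79.5 CPM per kilobase in brain and 3.87 in liver, a log2 difference of -4.35 (SE 0.15). The neuronal glucose transporter Slc2a3 was at 7.41 in brain and 0.0979 in liver, and Slc2a1, the transporter of the blood-brain barrier, was at 6.35 and 3.30 CPM per kilobase. G6pc3, the widely expressed phosphatase, was at 3.76 in brain and 1.12 in liver, and Pck2, the mitochondrial PEPCK, at 1.49 and 0.672. Among the pyruvate dehydrogenase kinases, Pdk2 was at 30.5 and Pdk1 at 16.5 CPM per kilobase in liver, both above Pdk4, and Pdk3 was at 12.5 in brain against 0.631 in liver. Irs1 was at 9.87 in liver and 2.97 in brain. The levels of Irs2 separated the tissues in KO and not in WT: WT liver (7.83 to 13.7 CPM per kilobase) overlapped WT brain (6.04 to 11.3), while KO liver (15.2 to 47.7) lay above KO brain (4.73 to 8.77), and no test was run within a genotype.

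**Figure D2:**
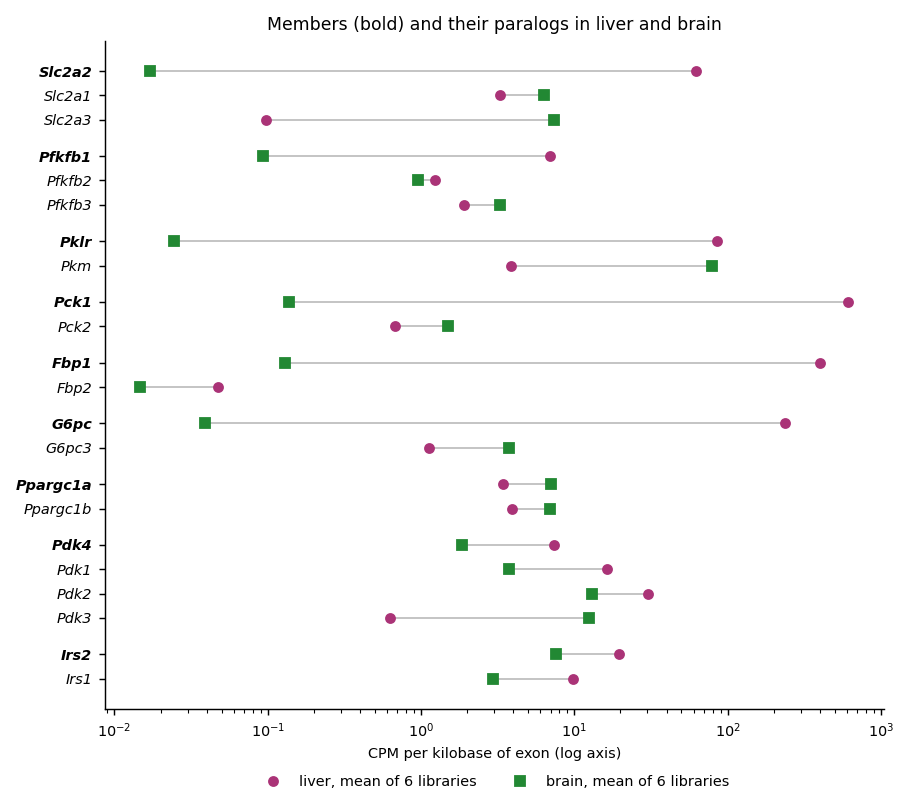
Mean level over 6 libraries of liver (circles) and of brain (squares) in CPM per kilobase of exon, on a log axis, for the 9 genes (bold) and their paralogs. The liver genes other than Pfkfb1 lie more than 3 powers of 10 apart between the tissues (Pck1 at 614 and 0.138), while Ppargc1a, Pdk4 and Irs2 lie within 1 power of 10, and Pkm, Slc2a3 and Pdk3 have their squares to the right.

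On the side of glucose uptake, Slc2a2 (GLUT2, chr3:28697903-28731359, plus strand, mm10) was at 352, 263 and 306 CPM in WT liver and at 238, 275 and 252 CPM in KO liver. The groups overlapped, since KO mouse C lay above WT mouse D. KO minus WT was -0.27 on the log2 scale (SE 0.15, unadjusted p 0.107, edgeR adjusted p 0.766), -0.16 without mouse B and -0.15 with an offset for the GC content of genes. Pfkfb1 (chrX:150588229-150643878, plus strand) encodes the liver form of the kinase and phosphatase that makes and removes fructose 2,6-bisphosphate. Its levels were 30.7, 25.5 and 20.9 CPM in WT and 15.3, 19.0 and 20.9 CPM in KO. The groups touched without overlap, as WT mouse E and KO mouse F differed only in the second decimal (20.89 and 20.86 CPM). With CPM of the plain library total they overlapped, with KO mouse F at 22.8 and WT mouse E at 21.7. On the log2 scale KO stood at -0.48 relative to WT (SE 0.18, unadjusted p 0.0244, edgeR adjusted p 0.584).

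Pklr (chr3:89136142-89146784, plus strand) encodes pyruvate kinase of liver and red cells from alternative first exons. The erythroid form starts at the gene's first base and the liver form from a start 481 bases further on. The window of RefSeq (GRCm38.p6) around the liver start, from 250 bases before it to 50 after it, is printed because it holds the sequence through which glucose acts on this gene. It lies at chr3:89136373-89136672, plus strand, and capitals mark a match to the carbohydrate response element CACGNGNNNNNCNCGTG, a pair of E-box-like pieces bound by ChREBP and MLX, which begins 170 bases before the start.
Pklr: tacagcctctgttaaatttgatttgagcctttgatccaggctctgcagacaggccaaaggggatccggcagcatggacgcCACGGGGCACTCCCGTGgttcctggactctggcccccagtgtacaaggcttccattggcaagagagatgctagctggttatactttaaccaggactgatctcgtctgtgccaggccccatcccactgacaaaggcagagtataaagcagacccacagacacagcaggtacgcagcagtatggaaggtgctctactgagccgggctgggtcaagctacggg
This spacing was searched on both strands in 32851 promoter windows of the same length and was present in 15 of them (0.0457%), which belong to 14 genes. The match is a description of the sequence and does not show binding in these mice.

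Pklr was at 350, 235 and 255 CPM in WT liver and at 164, 193 and 120 CPM in KO liver. All 3 KO libraries lay below all 3 WT libraries, and WT mouse B was the highest. The mean was 1.76-fold lower in KO, with 280 ± 61.2 CPM in WT and 159 ± 36.7 CPM in KO (SD, n = 3), which is -0.82 on the log2 scale (SE 0.21, unadjusted p 0.00392, edgeR adjusted p 0.428). A two-sided exact permutation test of the mean CPM gave 0.1, the lowest p possible with 3 libraries on each side. Pklr passed the threshold under DESeq2 (adjusted p 0.0357, with 171 calls or 1.1% of genes), with no filter on low counts (adjusted p 1.96e-04 with edgeR, 443 calls or 1.63%) and with a covariate for the presence of Y-linked transcripts (adjusted p 0.0979 with edgeR, 82 calls or 0.583%). Over all alternatives its adjusted p ran from 1.96e-04 to 0.985, and its log2 fold change from -0.98 without mouse C to -0.63 without mouse B.

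Among the enzymes of glucose production, Pck1 (chr2:173153048-173159273, plus strand) was the most abundant of the 9. Its promoter is printed for the cyclic AMP response through which glucagon acts on it. The window at chr2:173152823-173153122, plus strand, of RefSeq (GRCm38.p6) carries in capitals a match to the CREB half-site TGACG on the minus strand, beginning 90 bases before the start.
Pck1: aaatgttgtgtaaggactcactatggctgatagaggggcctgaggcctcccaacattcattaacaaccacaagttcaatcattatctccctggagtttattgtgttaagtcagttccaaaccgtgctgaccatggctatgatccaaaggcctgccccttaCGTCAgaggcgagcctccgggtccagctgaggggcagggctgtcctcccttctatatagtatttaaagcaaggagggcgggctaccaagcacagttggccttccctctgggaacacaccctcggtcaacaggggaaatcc
The half-site is short and was present on either strand in 20.8% of the 32851 windows. Pck1 stood at 1515, 1622 and 1393 CPM in WT liver and at 1795, 1449 and 2171 CPM in KO liver. KO mice A and F lay above all WT mice and KO mouse C within them. KO exceeded WT by 0.26 on the log2 scale (SE 0.18, edgeR adjusted p 0.826), and by 0.10 without mouse F and 0.39 without mouse C.

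Fbp1 (chr13:62864753-62888282, minus strand), which removes a phosphate from fructose 1,6-bisphosphate, was at 577, 537 and 648 CPM in WT and 446, 520 and 520 CPM in KO. The KO libraries all lay below the WT libraries, by a small margin that the plain library total does not keep: with it, KO mouse F at 567 CPM lay above WT mice B at 518 and D at 520. The difference came to -0.25 on the log2 scale (SE 0.14, edgeR adjusted p 0.782). Fbp1 was also one of the least variable of the 9, with a coefficient of variation of 9.57% in WT and 8.60% in KO.

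G6pc (chr11:101367561-101377903, plus strand) releases free glucose as the last step of the pathway. Its window at chr11:101367466-101367765, plus strand, of RefSeq (GRCm38.p6) is printed for the insulin response core CAAAACA, a sequence bound by FOXO1, whose match on the minus strand begins 174 bases before the start and is in capitals.
G6pc: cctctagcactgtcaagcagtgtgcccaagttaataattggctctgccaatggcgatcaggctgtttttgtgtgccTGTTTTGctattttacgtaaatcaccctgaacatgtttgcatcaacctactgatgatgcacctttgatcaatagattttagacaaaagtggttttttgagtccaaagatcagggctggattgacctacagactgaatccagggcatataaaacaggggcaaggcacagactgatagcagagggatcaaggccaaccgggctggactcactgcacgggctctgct
The core was present in 6.28% of the 32851 windows. G6pc was at 624, 432 and 274 CPM in WT liver and at 608, 385 and 382 CPM in KO liver. The groups overlapped over nearly their whole range, and WT alone spread by more than any difference between genotypes. The log2 difference of 0.05 (SE 0.32, edgeR adjusted p 0.988) turned to -0.21 when either mouse A or mouse E was left out.

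Among the regulators, Ppargc1a (chr5:51454250-51567726, minus strand) was at 17.4, 13.1 and 28.0 CPM in WT liver and at 19.4, 9.40 and 18.9 CPM in KO liver. The groups overlapped, with a log2 fold change of -0.29 (SE 0.36) at an edgeR adjusted p of 0.925, which turned to 0.06 without mouse E. Pdk4 (chr6:5483351-5496309, minus strand) was at 40.0, 8.20 and 23.5 CPM in WT and at 9.82, 18.0 and 23.4 CPM in KO. It was the most variable of the 9 within a genotype, with a coefficient of variation of 66.5% in WT, and KO lay at -0.48 on the log2 scale (SE 0.64, edgeR adjusted p 0.934). Without mouse B, which held the highest value, the log2 fold change was 0.11.

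Irs2 (chr8:10984681-11008458, minus strand) showed the largest difference of the 9. Its promoter holds an insulin response core as G6pc does, next to an E-box, and is printed for that pair. In the window at chr8:11008880-11009179, minus strand, of RefSeq (GRCm38.p6), capitals mark the E-box CACGTG, which begins 44 bases before the start, and the core CAAAACA on the opposite strand, which begins 37 bases before it. A single base separates them.
Irs2: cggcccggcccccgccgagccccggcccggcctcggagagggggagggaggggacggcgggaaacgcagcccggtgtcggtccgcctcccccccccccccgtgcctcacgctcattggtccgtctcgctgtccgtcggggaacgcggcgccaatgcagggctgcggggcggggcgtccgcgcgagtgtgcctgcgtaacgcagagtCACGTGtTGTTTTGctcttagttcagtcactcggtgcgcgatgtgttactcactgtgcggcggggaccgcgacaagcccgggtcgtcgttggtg
The E-box was present in 7.15% and the core in 6.28% of the 32851 windows. Ppargc1a is the other regulator with one of these matches, TGACG on the minus strand from 49 bases before its start.

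Irs2 was at 68.0, 39.8 and 52.6 CPM in WT liver and at 235, 75.4 and 116 CPM in KO liver. All 3 KO libraries lay above all 3 WT libraries, mouse A far above the others and mouse C close to WT mouse B. The mean was 53.4 ± 14.1 CPM in WT and 142 ± 83.1 CPM in KO (SD, n = 3), 2.66-fold higher or 1.41 on the log2 scale (SE 0.45, unadjusted p 0.0202, edgeR adjusted p 0.554). The two-sided exact permutation test again gave its lowest possible p, 0.1. DESeq2 gave an adjusted p of 0.326, and none of the 13 alternatives passed the threshold. Without mouse A the log2 fold change was 0.84, with KO still above WT.

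Igfbp1, the secreted binding protein of insulin-like growth factors and a classical gene repressed by insulin, had the smallest p of 18 tested genes of insulin signalling. It was at 78.3, 61.0 and 56.5 CPM in WT liver and at 321, 90.0 and 180 CPM in KO liver, a log2 fold change of 1.59 (SE 0.46, unadjusted p 0.0130, edgeR adjusted p 0.497). Both Irs2 and Igfbp1 were highest in mouse A, then F, then C, then B. Below these the order differed, with Irs2 lowest in mouse D and Igfbp1 lowest in mouse E. Irs1 and the insulin receptor Insr, named here after their values were seen, had log2 fold changes of 0.11 and 0.14 in liver.

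The balance of opposing enzymes was read within each library, as the log2 ratio of their CPM, which does not depend on the library's scaling. Pck1 over Pklr compares the first committed enzyme of glucose production with the last of glycolysis. The ratio was 2.11, 2.78 and 2.45 in WT liver and 3.46, 2.91 and 4.17 in KO liver. Every KO library lay above every WT library, by 1.06 on average. The pair in the middle of the pathway gave other values: Fbp1 over the liver phosphofructokinase Pfkl was 3.87, 4.13 and 4.71 in WT and 3.86, 3.89 and 3.95 in KO, on average 0.33 lower in KO and overlapping. Pklr and Pck1 were among the 9 genes chosen with earlier results known, so these ratios are descriptions and carry no test.

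**Figure D3:**
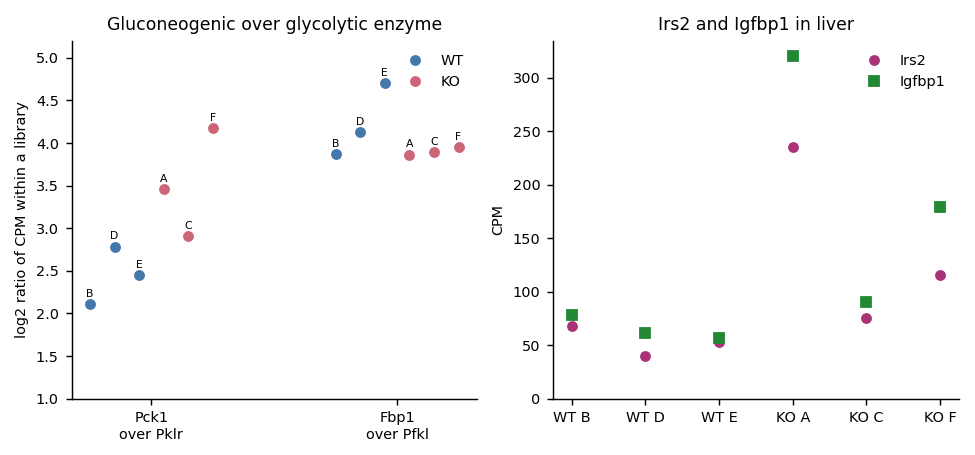
Left, log2 ratio of CPM within each liver library for 2 pairs of a gluconeogenic over a glycolytic enzyme, with WT in blue, KO in red and the mouse's letter above each point. Right, CPM of Irs2 (circles) and Igfbp1 (squares) in each liver library on an axis from 0. Pck1 over Pklr separates KO (2.91 to 4.17) from WT (2.11 to 2.78), Fbp1 over Pfkl overlaps, and mouse A holds the highest Irs2 (235 CPM) and Igfbp1 (321 CPM).

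The rest of the pathway in liver was described from lists of genes that hold none of the 9. No gene of any list passed the adjusted threshold, so the counts below use an unadjusted p under 0.05, where 2.76% of all genes tested were higher and 4.57% lower in KO. Of 26 tested genes of glycolysis and fructolysis, 3 were lower and 1 higher, and the median log2 fold change was -0.11. The 2 with the smallest p were Aldoc, the brain aldolase, which was the higher one with 0.63 (SE 0.16), and the fructokinase Khk, which was among the lower ones with -0.54 (SE 0.16). Enzymes of the stretch that leads to pyruvate kinase had log2 fold changes of -0.13 for Gapdh, -0.07 for Pgk1, 0.06 for Pgam1 and -0.23 for Eno1. Those 4 were picked by their place in the pathway.

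Of 18 tested genes of gluconeogenesis and its substrates, 2 were lower and 0 higher, with a median of -0.13. They were Tat, which degrades tyrosine, with -0.53 (SE 0.16), and Slc37a4, the glucose-6-phosphate transporter that works with G6pc, with -0.33 (SE 0.14). Of 17 glycogen genes, 1 was lower (Ppp1r3b, which targets protein phosphatase 1 to glycogen, with -0.86, SE 0.23) and the median was -0.10. Of 6 glucose transporters, 1 was higher (Slc2a8, with 0.57, SE 0.19), and of 12 genes of pyruvate entry into mitochondria, 2 were lower (Pdk1 with -0.36 and Dld with -0.30). Among 18 insulin signalling genes, 1 was higher (Igfbp1) and 1 lower, and the median was 0.11.

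Among the lists of response genes, the feeding-induced and clock lists had the medians furthest from 0, and no test compared the lists. The feeding-induced list holds genes that feeding induces through SREBP-1c and ChREBP, and also these factors. Of its 22 tested genes, 14 were lower and 0 higher, with a median of -0.50 and 20 of 22 below 0. The lower ones include Thrsp with -2.20 (SE 0.31) and the lipase Pnpla3 with -3.20 (SE 0.63). The factors stood at -0.45 (SE 0.18) for Srebf1 and -0.27 (SE 0.23) for Mlxipl, which encodes ChREBP. This list, like the others, was chosen with earlier results of these data known. The study had reported Thrsp and genes of lipid biosynthesis as lower in its liver RNA-seq, so the count is a description. Of 27 factors that drive the fasting programme, 4 were higher and 0 lower, with a median of 0.13, of which the CREB coactivator Crtc3 with 0.83 (SE 0.22) and Pprc1, a relative of PGC-1alpha, with 0.50 (SE 0.14) had the smallest p. The other two, named after their values were seen, were Foxa1, with the largest difference of the list at 1.02 (SE 0.32), and Foxa2 with 0.41 (SE 0.16). Of 22 genes that fasting induces, however, 1 was higher and 3 were lower, with a median of -0.21, and Cidec (-3.02, SE 0.60), a lipid droplet gene that adipocytes also express, and Ddit4 (-1.22, SE 0.37) had the smallest p. Cidec averaged 2.78 CPM in WT and 0.339 in KO, beside the adipocyte marker sums given above, whose part in it was not tested. Of 18 clock genes, 5 were lower and 1 higher, with a median of -0.50 (Bhlhe40 -1.23 and Per2 -1.19), and of 12 glucocorticoid targets 2 were lower, with a median of -0.30 (Tsc22d3 -0.93). These last lists respond to the hour of collection or to stress hormones, which the labels do not give, and their part in the values of the 9 genes was not tested. Of 13 markers of the periportal zone, where Pck1, G6pc and Fbp1 are known to be expressed most, 0 were higher and 0 lower, with a median of -0.06. Of 15 pericentral markers, 2 were higher (Cyp1a2 with 0.52 and Gulo, named after its values were seen, with 0.34) and 1 was lower (Slc1a2 with -0.57), with a median of 0.02.

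**Figure D4:**
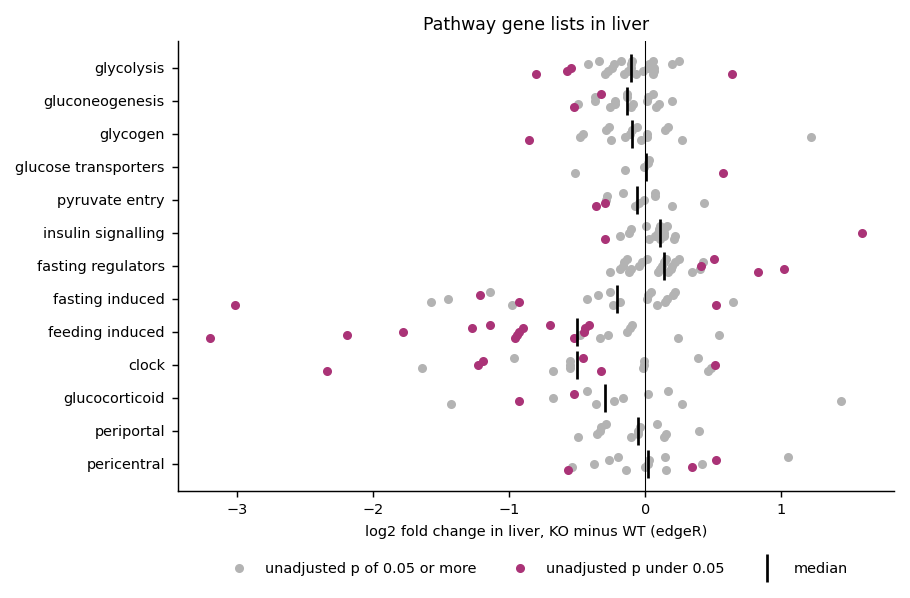
Log2 fold change in liver (KO minus WT, edgeR) of each tested gene in 13 lists, 1 point per gene, in purple where the unadjusted p was under 0.05, with the median as a black bar. The feeding-induced list lies furthest to the left with the clock list (medians of -0.50 each, 14 of 22 feeding-induced genes in purple), while glycolysis and gluconeogenesis centre near 0 (medians of -0.11 and -0.13).

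The genes most like each of the 9 across the 6 liver libraries were sought by the mean absolute difference of centred log2 CPM, among genes that varied at least 0.8 times as much. The nearest to Pklr was Gpam, the acyltransferase that begins triglyceride synthesis, with a mean difference of 0.0789. The nearest to Slc2a2 was Car5b (0.0420), to Fbp1 Mccc1 (0.0350), to Pck1 Fam234b (0.0321), to Pfkfb1 Fam198a (0.0605), to Ppargc1a Casp12 (0.0717) and to G6pc Frat2 (0.0954). The differences were largest for Pdk4, at 0.243 for Cdr2, and Irs2, at 0.149 for Gm32540. These genes also varied most, with log2 ranges of 2.27 and 2.56, and were compared with the fewest genes (1370 and 974). The measure grows with a gene's range, so it does not rank how close the matches are. Within the 9, Slc2a2 and Fbp1 were nearest to each other (0.104), and the nearest to Irs2 was Pck1 (0.521). With TMM, mouse B held the highest liver value of 5 of the 9 genes (Slc2a2, Pfkfb1, Pklr, G6pc and Pdk4) and of 14.3% of all genes tested, and with the plain library total it held that of 3 of the 9.

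The comparison of KO with WT brain bears on the 3 regulators, since the 6 others are nearly absent there. None of the 4 genes that passed the filter was called, where 11 of 17188 genes were (0.064%), and 0 of 4 had an unadjusted p under 0.05, where 11.0% of all genes tested did. The genotypes overlapped for all 4, while 16.3% of all genes tested showed no overlap. Ppargc1a, which supports mitochondrial gene expression in neurons, was at 56.8, 55.4 and 53.9 CPM in WT brain and at 66.8, 65.4 and 56.0 CPM in KO brain. KO mice A and C lay above all WT mice and mouse F within them, and the log2 difference was 0.18 (SE 0.13, edgeR adjusted p 0.590). With the offset for GC content it was -0.003, and genes of similar GC content had a median of 0.17 in brain.

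Irs2 was at 48.7, 90.0 and 70.6 CPM in WT brain and at 38.1, 70.3 and 49.2 CPM in KO brain. The groups overlapped, at a log2 difference of -0.41 (SE 0.27, edgeR adjusted p 0.573), which ran from -0.19 without mouse D to -0.68 without mouse C. KO mouse A, which had the highest Irs2 of all livers, had the lowest of all brains. Pdk4 was at 8.12, 10.04 and 7.64 CPM in WT brain and at 6.34, 9.57 and 7.84 CPM in KO brain, a log2 difference of -0.12 (SE 0.22, edgeR adjusted p 0.841). Pck1 had 2 to 19 counts per brain library and a log2 fold change of -0.27 (SE 0.67). The other 5 did not pass the filter, with at most 20 counts in a brain library.

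The brain libraries also differed in composition between genotypes. All 12 olfactory bulb markers were higher in KO, with sums of 57.0 to 63.3 CPM in WT and 148 to 189 in KO, and all 12 cerebellar markers were lower, with sums of 2565 to 3559 CPM in WT and 901 to 1838 in KO. All 10 choroid plexus markers were lower (sums of 45.5 to 71.5 CPM in WT and 31.2 to 40.6 in KO). All 9 striatal markers were higher, with sums that overlapped (401 to 726 CPM in WT and 721 to 1041 in KO). The ependymal and tanycyte markers summed to 39.3 to 46.1 CPM in WT and 50.3 to 53.7 in KO, and the hepatocyte markers to 445 to 763 in WT and 282 to 409 in KO brain. In brain, the hepatocyte sum was mostly Ttr, with 1198 to 6866 counts per library, and Trf, with 1935 to 7327. The next highest, Alb, had 135 to 485. Mitochondrial rRNA took 7.63% to 17.7% of counts in WT brain and 21.4% to 31.6% in KO brain. The part of brain regions in the values of Ppargc1a, Irs2 and Pdk4 was not tested.

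**Figure D5:**
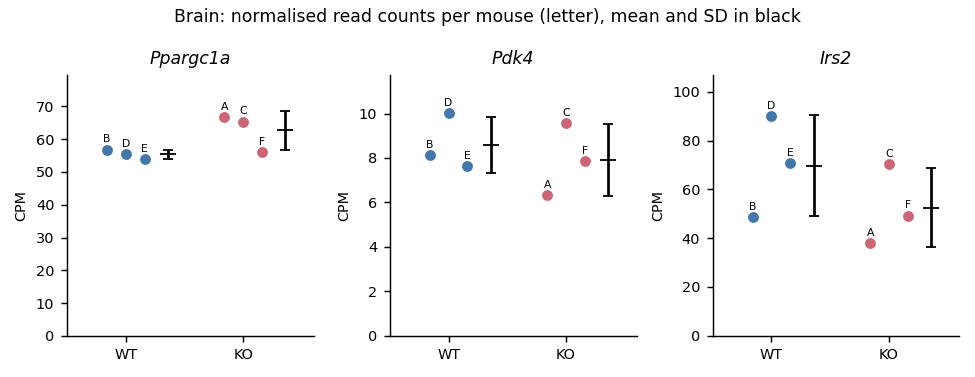
Normalised read counts (CPM, linear axes from 0) of Ppargc1a, Pdk4 and Irs2 in each brain library, with WT in blue, KO in red, the mouse's letter above each point and the group's mean and SD (n = 3) in black. The groups overlap in all 3 panels, and mouse A has the lowest Irs2 (38.1 CPM) and the lowest Pdk4 (6.34 CPM).

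Whether the genotype difference itself differed between the tissues was tested over all 12 libraries. Irs2 came closest: the liver effect exceeded the brain effect by 1.85 on the log2 scale (SE 0.55, unadjusted p 0.00534, edgeR adjusted p 0.273), and it was the only one of the 9 at an unadjusted p under 0.05, where 10.6% of all genes tested were. It passed with DESeq2 (1.84, adjusted p 0.0487), where 369 of 17699 genes did (2.08%). It did not pass with mouse as a replicate block, the fit that pairs the liver and brain of a mouse (1.72, edgeR adjusted p 0.518). Without mouse A the difference was 1.10 (edgeR adjusted p 0.655). No gene of 18944 passed in the fit without the block (0.0%), and 68 did with it (0.359%), none of them among the 9. For Ppargc1a the difference was -0.44 (SE 0.39) and for Pdk4 -0.34 (SE 0.65), and neither passed (edgeR adjusted p 0.707 and 0.916). For the 6 liver genes, which had few brain counts, the SEs were 0.58 to 0.88 on the log2 scale.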

How the data were processed

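Total RNA of liver and brain was sequenced as stranded single-end libraries. Per the labels and the study's methods, the authors trimmed reads with Trimmomatic, aligned them to mm10 with STAR 2.7.3a and counted them per gene and strand over exons with featureCounts, so the deposited values are raw counts with no normalisation. Of 55487 genes, 55141 matched a symbol.

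Counts were fitted with edgeR 4.0.16 in R 4.3.3 (TMM, filterByExpr, robust quasi-likelihood F test, Benjamini-Hochberg over all genes tested, call at an adjusted p under 0.1). The study's tool, DESeq2 (1.42.0), was an alternative. Each tissue was fitted on its 6 libraries, and the contrasts between tissues on all 12. The study describes its RNA-seq mice as 3 pairs, and shows a littermate pair. The labels name no litter and do not say which KO and control mice form a pair, so no such pair entered a fit. In the main fits within a tissue, p-values measure the spread between these mice. The main fits of 12 libraries took the liver and brain libraries of a mouse as independent, and mouse entered as a block only in an alternative. CPM are TMM-scaled within a tissue. CPM per kilobase are TMM-scaled over all 12 libraries and use the exon length of the deposited table. Intervals and floors cover counting error only. The steps were tested on simulated data.

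The members and lists were chosen with earlier results of these data known. The rule for names takes all 9 members, their paralogs, the 2 genes of each list with the smallest p, and 1 nearest gene for each member, with log2(CPM + 0.1) as its scale. A gene outside the rule is said to be so, except Srebf1 and Mlxipl, also named after their values were seen, and Pfkl and the hepatocyte markers, named as partner and markers. Some genes enter the lists' counts and medians but are not reported here singly.

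The labels give the liver and brain of a mouse the same letter. Over 12574 genes, the correlation of their deviations from the group means ran from -0.0373 (mouse B) to 0.144 (mouse F). No letter pairs mice between genotypes.

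Alternatives were DESeq2, RLE size factors, no filter, mitochondrial genes left out, all 12 libraries in 1 fit, a covariate for Y-linked transcripts (each genotype has 2 mice with them), an offset for GC content, mouse as a block, CPM of the plain total, and leaving out each mouse. Promoter windows are from RefSeq (GRCm38.p6), with all 9 genes matched.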

Additional observations from a re-analysis of the deposited data

How the results depend on the processing

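Pck1, Pdk4, Irs2 and Ppargc1a kept their direction and their call between liver and brain under every alternative run. In liver, the genes called numbered 0 with edgeR, 171 with DESeq2, 443 with no filter, 3 with all 12 libraries in one fit and 82 with the Y-linked covariate, and 0 to 87 when 1 mouse was left out (87 without mouse D, 2 without mouse C). Of the 9, 1 (Pklr) was called with DESeq2, with no filter and with the Y-linked covariate. Log2 fold changes in liver turned sign only when a mouse was left out: G6pc ranged from -0.21 to 0.37, Ppargc1a from -0.51 to 0.060 and Pdk4 from -0.89 to 0.11. In brain, the genes called numbered 11, against 269 with DESeq2, 1000 with no filter and 20 with the GC offset, and 2 to 23 without 1 mouse (6 without A, 3 without B, 23 without C, 4 without D, 2 without E, 5 without F). There, Ppargc1a was -0.0028 with the GC offset, Pdk4 ranged from -0.28 to 0.015 (0.0063 without D) and Pck1 from -0.92 to 0.19 without 1 mouse, and the median of the genes tested from -0.29 to 0.0063. The mean brain CPM of Ppargc1a differed by 7.36 (KO minus WT) with TMM and by -2.07 with the plain total. For the difference between tissues, the count was 0, against 369 with DESeq2 (1 of the 9, Irs2), 1 with RLE size factors, 183 with no filter, 1 with mitochondrial genes left out, 68 with mouse as a replicate block and 0 to 86 without 1 mouse (86 without D, 1 without F). There, the median over the 9 was -0.18 and ranged from -0.16 to 0.40 without 1 mouse, Slc2a2 from -0.82 to 0.61, Pfkfb1 from -2.66 to 0.079, Fbp1 from -0.82 to 0.46 and Pdk4 from -0.88 to 0.32, with brain counts of the first 3 near 0. The cause of these shifts was not tested. The replicate block changed no call among the 9. At 3 mice per genotype, the smallest exact permutation p is 0.1, and 5 of the 6 liver genes, all but Pck1, cannot be compared between genotypes in brain at this depth.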
